A study of Mus musculus with 12 samples.

Results

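The immunity-related GTPase (IRG) genes were described in alveolar type II (AT2) cells, the surfactant-making cells of the lung, taken beside or away from lung metastases. The 8 members were Irgm1, Tgtp1, Tgtp2, Igtp and Irgm2 on chromosome 11 and Gm4951, F830016B08Rik and Iigp1 on chromosome 18, of 21631 protein-coding genes in the annotation. They were chosen by family membership with earlier results of these data in view, the length under peaks at the Iigp1 locus among them. Their own values are therefore a description and carry no test. For each member every peak that overlapped the gene or 10 kb on either side (its locus) was taken, and all 8 loci passed the filter of a peak in at least 3 libraries, which 16823 loci passed in all.

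Chromatin accessibility had been profiled by Omni-ATAC-seq, a method that marks open DNA by letting the enzyme Tn5 cut it and insert sequencing adapters. The mice were BALB/c, aged 6 to 8 weeks, and each received 800000 labelled tumour cells by tail vein. The cells were CT26, a colon carcinoma line, or 4T1, a mammary carcinoma line, both of BALB/c origin, and lungs were taken at day 7. The 4 groups were AT2 cells of the CT26 metastatic niche, of distal lung in CT26 mice, of the 4T1 metastatic niche and of distal lung in 4T1 mice, with 3 libraries each. Each library came from 50000 sorted cells of 5 pooled lungs. All 4 groups came from lungs with tumour cells, and no tumour-free lung was among the samples analysed here, so distal lung is the only reference within a model.

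IRG proteins are GTPases that interferons, above all interferon-gamma, induce in mouse cells. The effector proteins, among them Iigp1 and the Tgtp proteins, load onto the vacuoles of intracellular pathogens such as Toxoplasma gondii and disrupt them. The regulators Irgm1, Irgm2 and Igtp sit on the cell's own membranes and hold the effectors inactive there. Interferon acts on such genes through STAT dimers, which bind gamma-activated sites (TTCNNNGAA), and through IRF proteins and their complexes, which bind interferon-stimulated response elements (built on GAAANNGAAA).

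The promoters of the 5 chromosome 11 members are shown because the start site of Tgtp2 was under a peak in some libraries only, whereas those of the other 4 were under a peak in all 12. They are the 250 bases before each RefSeq start site, in the direction of transcription, from the GRCm38.p6 promoter table, which matched 5 of the 8 members. Gm4951, F830016B08Rik and Iigp1 were not matched. Capitals mark GAAANNGAAA.
Irgm1: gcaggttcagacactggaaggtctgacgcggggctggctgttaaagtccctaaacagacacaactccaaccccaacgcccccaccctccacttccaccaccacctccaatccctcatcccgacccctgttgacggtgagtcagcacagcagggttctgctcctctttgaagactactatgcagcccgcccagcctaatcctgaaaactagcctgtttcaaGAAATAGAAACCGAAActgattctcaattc
Tgtp1: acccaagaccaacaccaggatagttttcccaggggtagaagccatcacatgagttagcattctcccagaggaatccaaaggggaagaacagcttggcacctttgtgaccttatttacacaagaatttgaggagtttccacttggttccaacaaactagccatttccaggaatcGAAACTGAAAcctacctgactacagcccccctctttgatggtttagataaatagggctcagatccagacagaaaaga
Tgtp2: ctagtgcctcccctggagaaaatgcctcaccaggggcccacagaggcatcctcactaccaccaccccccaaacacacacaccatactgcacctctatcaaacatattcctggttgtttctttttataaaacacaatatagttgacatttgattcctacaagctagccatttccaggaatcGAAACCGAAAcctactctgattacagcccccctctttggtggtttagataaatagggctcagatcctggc
Igtp: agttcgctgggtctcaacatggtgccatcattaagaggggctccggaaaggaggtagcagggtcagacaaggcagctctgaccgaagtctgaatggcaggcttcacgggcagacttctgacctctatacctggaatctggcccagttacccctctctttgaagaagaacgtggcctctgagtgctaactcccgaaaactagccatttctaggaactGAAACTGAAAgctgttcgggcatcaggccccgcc
Irgm2: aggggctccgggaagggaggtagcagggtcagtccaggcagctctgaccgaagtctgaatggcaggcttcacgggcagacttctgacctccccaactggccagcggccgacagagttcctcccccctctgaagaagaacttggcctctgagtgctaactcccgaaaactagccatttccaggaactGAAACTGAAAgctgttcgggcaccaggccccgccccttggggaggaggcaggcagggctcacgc

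The windows lie at chr11:48871421-48871670 for Irgm1, chr11:48992247-48992496 for Tgtp1 and chr11:49064213-49064462 for Tgtp2, all on the minus strand. Those of Igtp and Irgm2 lie at chr11:58199306-58199555 and chr11:58214727-58214976 on the plus strand. GAAANNGAAA, searched on both strands, was present in 5 of 5 windows, against 2.98% of 32851 RefSeq promoter windows of the same length. Counted back from the start site, it covered bases 77 to 68 in Tgtp1, 70 to 61 in Tgtp2, 34 to 25 in Igtp and 64 to 55 in Irgm2. In Irgm1 a pair of overlapping matches covered bases 30 to 21 and 24 to 15. TTCNNNGAA, a palindrome that matches both strands at once, was present in 4 of 5 windows, all but that of Irgm1, against 7.02% of all windows. It ended 2 bases before GAAANNGAAA in each of those 4 windows, and the motifs did not overlap. Laid side by side without gaps, the Igtp and Irgm2 windows had 60.9% of bases identical over 220 bases, the highest share of any pair. Those of Tgtp1 and Tgtp2 had 42.6% over 242 bases. The printed Tgtp windows differ in length by an inserted base just after GAAANNGAAA. Their share without gaps therefore understates how alike they are near the start site, and the pairs are not ranked by it. A match is a string of letters and was not tested as a binding site.

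The lists differed in length before any locus was considered. The libraries held 51005 to 55529 peaks in CT26 niche, 42067 to 50093 in CT26 distal, 63722 to 66911 in 4T1 niche and 56330 to 58237 in 4T1 distal. They covered 40.4 ± 3.69 Mb in CT26 niche and 33.2 ± 1.63 Mb in CT26 distal, and 50.9 ± 1.60 Mb in 4T1 niche and 44.2 ± 1.98 Mb in 4T1 distal (SD, n = 3). Because the lists differ in length with the groups, lengths are also given scaled to the mean total cover. Read depth, which the peak lists do not give, cannot be told apart from openness. Peaks were present in all 12 libraries at 10 of 10 AT2 marker loci, including Sftpc and Abca3. Of 14 leukocyte marker loci, 6 also had a peak in all 12 libraries, with Spi1 at 4.02 ± 0.791 kb in CT26 niche and 3.59 ± 0.551 kb in CT26 distal and Cd68 at 3.11 ± 0.110 and 2.95 ± 0.213 kb in the same order (SD, n = 3). Those with no peak in any library included Cd3d, Adgre1, Cx3cr1 and Laptm5, and Ptprc, the pan-leukocyte gene, had peaks only in CT26 niche libraries (0.310 ± 0.347 kb, SD, n = 3). The summed length at the leukocyte loci was 14.4 to 20.3 kb in CT26 niche and 12.7 to 13.4 kb in CT26 distal libraries, and 19.2 to 23.2 kb in 4T1 niche and 19.4 to 20.0 kb in 4T1 distal libraries. Fibroblast marker loci (8, of which Dcn had no peak) summed to 6.81 to 10.4 kb in CT26 niche and 4.27 to 5.95 kb in CT26 distal libraries, and to 8.94 to 10.4 kb in 4T1 niche and 6.27 to 8.37 kb in 4T1 distal libraries. Endothelial marker loci (10, of which Emcn had no peak) summed to 12.4 to 15.4 kb in CT26 niche and 11.3 to 11.9 kb in CT26 distal libraries, and to 19.3 to 23.1 kb in 4T1 niche and 13.6 to 17.0 kb in 4T1 distal libraries. AT1 marker loci (6) summed to 18.6 to 21.6 kb in CT26 niche and 14.7 to 16.2 kb in CT26 distal libraries, and to 21.9 to 24.6 kb in 4T1 niche and 20.2 to 20.7 kb in 4T1 distal libraries. These sums are unscaled, and their part in the IRG values was not tested.

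All 8 IRG loci were covered over a longer stretch in every niche library than in any distal library of the same model. The groups did not overlap at 8 of 8 loci in CT26, where 33.5% of all loci tested were higher in the niche in this way, and at 8 of 8 loci in 4T1, where 27.5% were. After scaling, 6 of 8 loci still did not overlap in CT26 (all but Irgm1 and Tgtp2; 6.76% of all loci) and 5 of 8 in 4T1 (Tgtp2, Irgm2, Gm4951, F830016B08Rik and Iigp1; 8.08% of all loci). None of the 8 was lower in the niche without overlap in either model, where 0.440% of all loci were in CT26 and 0.915% in 4T1, or 15.3% and 19.5% after scaling. Since the members were chosen with such values known, nothing is read from these shares. The 8 loci are also not all separate, as those of Igtp and Irgm2 share 3 regions, the Irgm2 start region among them. In sorted pools of cells, a larger share of cells with an open locus and a more open locus in each cell cannot be told apart.

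**Figure D1:**
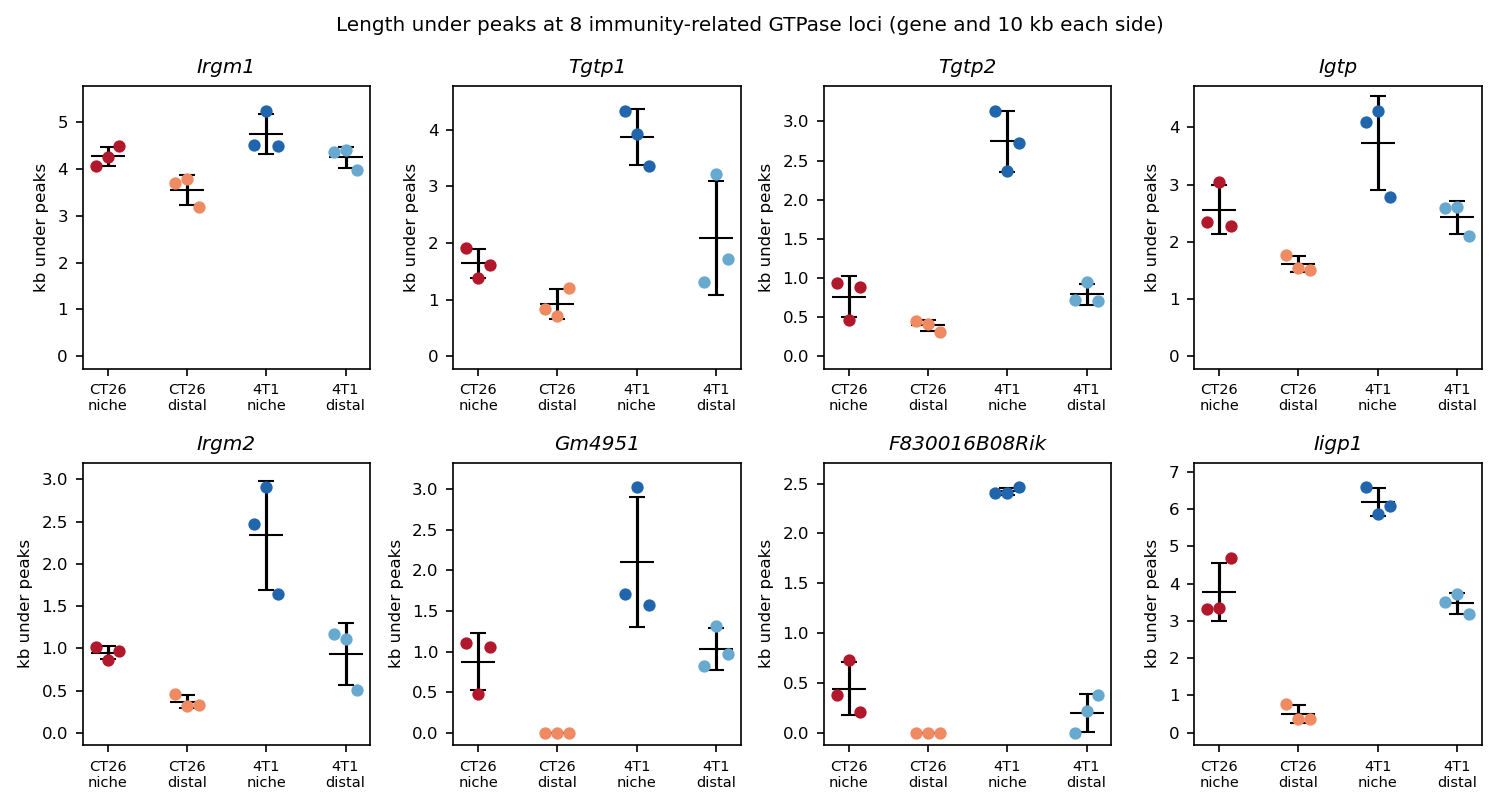
Length under peaks (kb, unscaled; linear axes of different range) at each of the 8 IRG loci in each library, by group. Points are libraries, and the bar with whiskers is the mean ± SD (n = 3). Niche libraries lay above the distal libraries of their model at all 8 loci. Gm4951 and F830016B08Rik had no peak in CT26 distal libraries.

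Iigp1, an effector GTPase, had the longest cover of the chromosome 18 members. Its gene spans 60373616 to 60392634 of chromosome 18. Its locus held 3.33, 3.34 and 4.68 kb in CT26 niche libraries, against 0.772, 0.364 and 0.371 kb in CT26 distal libraries. It held 6.59, 5.87 and 6.09 kb in 4T1 niche libraries, against 3.50, 3.72 and 3.18 kb in 4T1 distal libraries. The CT26 distal libraries thus stood far below the other 9, whereas the CT26 niche libraries and the 4T1 distal libraries overlapped. The scaled log2 change, niche minus distal, was 1.99 ± 0.17 in CT26 and 0.56 ± 0.17 in 4T1 (SE, on log2 of scaled bp + 500 bp). With lists of equal length (the strongest peaks of each library) the CT26 change was 0.81, and with peaks of −log10 q of at least 5 the locus had none left in either CT26 group and the change was 0.00. The 4T1 change was 0.37 with those stronger peaks and 0.94 over the gene body alone.

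The cover of Iigp1 came from 4 regions, that is, stretches merged from overlapping peaks of the 12 libraries. The widest, at chr18:60391161-60394587, ran over the upper end of the gene, and the gene table used gives no strand. It held 1.40, 1.87 and 2.98 kb in CT26 niche libraries and no peak in CT26 distal libraries. The same region held 2.51, 2.74 and 2.66 kb in 4T1 niche libraries and 1.91, 1.76 and 1.91 kb in 4T1 distal libraries. It thus had a peak in 9 libraries and lacked one in the CT26 distal libraries only. Within the gene, the region at chr18:60375466-60376501 was held by 11 libraries, all but CT26 distal replicate 3, and that at chr18:60379749-60382771 by 11 libraries, all but CT26 distal replicate 2. The last, at chr18:60373296-60374424 over the lower end of the gene, was held by 1 CT26 niche library and no CT26 distal library, and by 3 4T1 niche libraries and 1 4T1 distal library. By the authors' −log10 p, the peaks in the region over the upper end ranked between the 4.89 and 44.3 percentiles of their own lists, so they were not among the strong peaks of any library. Those of the CT26 niche libraries ranked lowest in range, between the 4.89 and 12.2 percentiles.

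**Figure D2:**
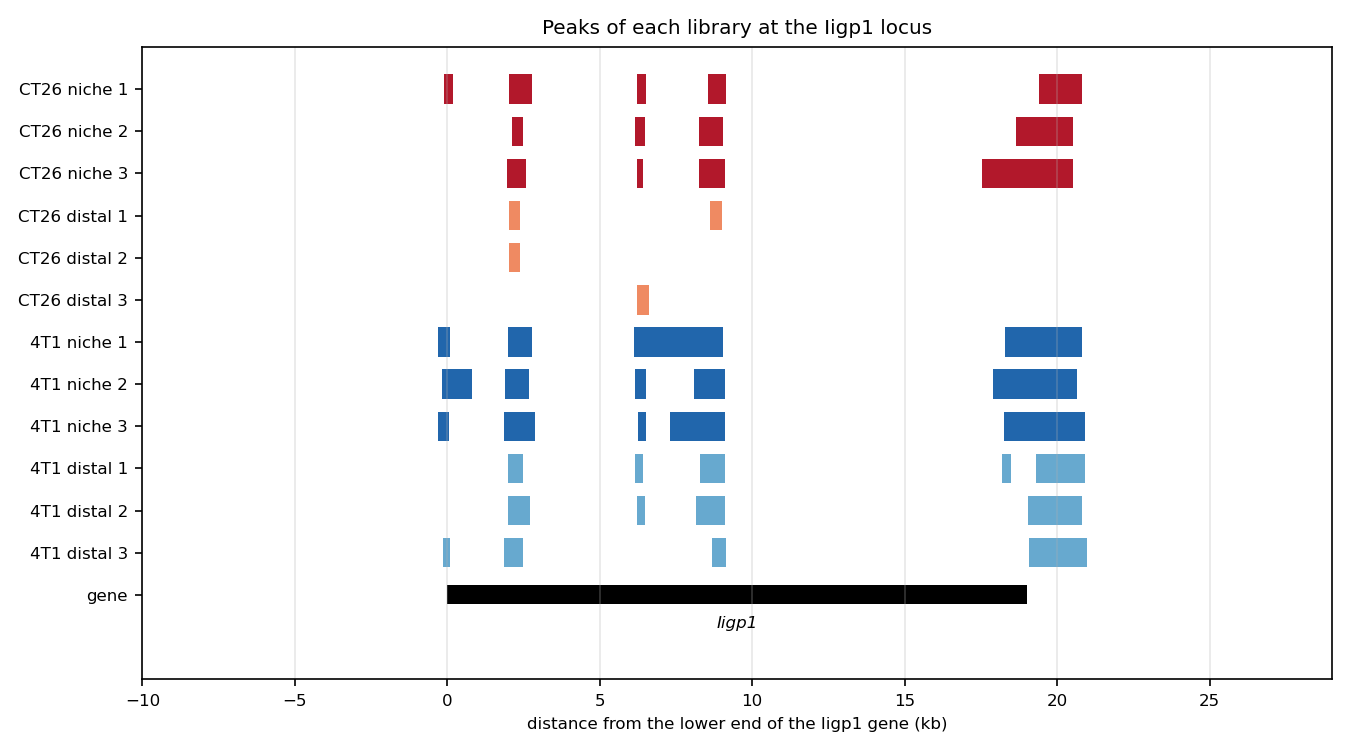
Peaks of each library at the Iigp1 locus (gene and 10 kb each side), with distance in kb from the lower end of the gene on the x axis and 1 library per line. Coloured bars are deposited peaks, and the black bar is the gene. The stretch over the upper end of the gene is covered in 9 libraries and in none of the CT26 distal libraries.

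F830016B08Rik, an IRG gene model beside Iigp1 with no function assigned here (60288739 to 60303823), held 2.40, 2.40 and 2.47 kb in 4T1 niche libraries, against 0, 0.214 and 0.380 kb in 4T1 distal libraries, a scaled log2 change of 1.89 ± 0.22 (SE). That change was 1.27 with lists of equal length, 1.17 with peaks of −log10 q of at least 5, 1.18 over the gene body and 3.12 with 100 bp added in place of 500. The locus held 0.378, 0.731 and 0.211 kb in CT26 niche libraries, and no peak in CT26 distal libraries, so no fold is given. Its CT26 log2 change, which rests on the bp added, ran from 0.00 to 2.37 over 12 alternatives and was positive in 11. The 4T1 niche libraries lay close together and far above all other libraries. A region over the upper end of the gene, chr18:60303701-60305771, held 0.720, 1.57 and 1.08 kb in 4T1 niche libraries and no peak in any other library. By −log10 p its peaks were weak, between the 5.53 and 14.1 percentiles of their own lists. Another, inside the gene at chr18:60292857-60293709, was held by 3 CT26 niche and no CT26 distal libraries, and by 3 4T1 niche and 2 4T1 distal libraries.

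Gm4951, a further IRG gene model (60212004 to 60248440), held 1.10, 0.474 and 1.05 kb in CT26 niche libraries and no peak in CT26 distal libraries. It held 1.71, 3.02 and 1.57 kb in 4T1 niche libraries, against 0.820, 1.32 and 0.964 kb in 4T1 distal libraries, with a scaled log2 change of 0.56 ± 0.21 (SE). The 4T1 change was 0.34 without 4T1 niche replicate 2, the library with the most cover, 1.04 with lists of equal length and 1.38 with peaks of −log10 q of at least 5. Niche and distal libraries did not overlap in either model. The region 2467 bp outside the gene, at chr18:60208782-60209537, and the one over its lower end, at chr18:60211543-60212266, were held by all 3 4T1 distal libraries and no CT26 distal library. Together with the region over the upper end of Iigp1 these were the only IRG regions of that kind, 3 of 33 (9.09%), against 2.84% of all 83727 merged regions.

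Tgtp2, a T-cell-specific GTPase of the effector class (49057196 to 49064212 of chromosome 11), held 3.14, 2.37 and 2.73 kb in 4T1 niche libraries, against 0.716, 0.946 and 0.708 kb in 4T1 distal libraries, a scaled log2 change of 1.14 ± 0.15 (SE). It held 0.938, 0.460 and 0.886 kb in CT26 niche libraries, against 0.454, 0.417 and 0.314 kb in CT26 distal libraries, a scaled change of 0.35 ± 0.15 (SE). All of the length in CT26 distal libraries, in CT26 niche replicate 2 and in 4T1 distal replicate 1 lay at chr11:49051209-49052082. That region in the flank lies over the start site of 9930111J21Rik2, not of Tgtp2. It also held 0.481 of the 0.946 kb in 4T1 distal replicate 2 and 0.519 of the 0.708 kb in replicate 3. With lists of equal length the changes were 0.13 in CT26 and 0.37 in 4T1, and with peaks of −log10 q of at least 5 they were 1.10 and 0.30 in that order. The 4T1 niche libraries stood above all 9 others, while the lowest CT26 niche library lay just above the highest CT26 distal library and the CT26 groups overlapped after scaling. A region inside the gene, chr11:49061457-49062440, and one 1092 bp beyond its 3′ end, chr11:49055440-49056104, were held by all 3 4T1 niche libraries and no other library.

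The start site of Tgtp2 was the only one of the 5 chromosome 11 start sites that was not under a peak in all 12 libraries. A peak lay over it in 2 CT26 niche libraries and in no CT26 distal library, and in 3 4T1 niche and 2 4T1 distal libraries. Of the 250 bases printed for Tgtp2, 55.3 ± 58.2 were under a peak in CT26 niche and 0 in CT26 distal libraries, and 227 ± 20.2 in 4T1 niche and 88.3 ± 86.6 in 4T1 distal libraries (SD, n = 3). The windows of Irgm1 and Irgm2 were covered whole in all 12 libraries, those of Igtp and Tgtp1 over at least 186 and 188 bases. Thus 4 promoters that carry GAAANNGAAA were under peaks in every library, and the one of Tgtp2, which carries it too, was not.

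**Figure D3:**
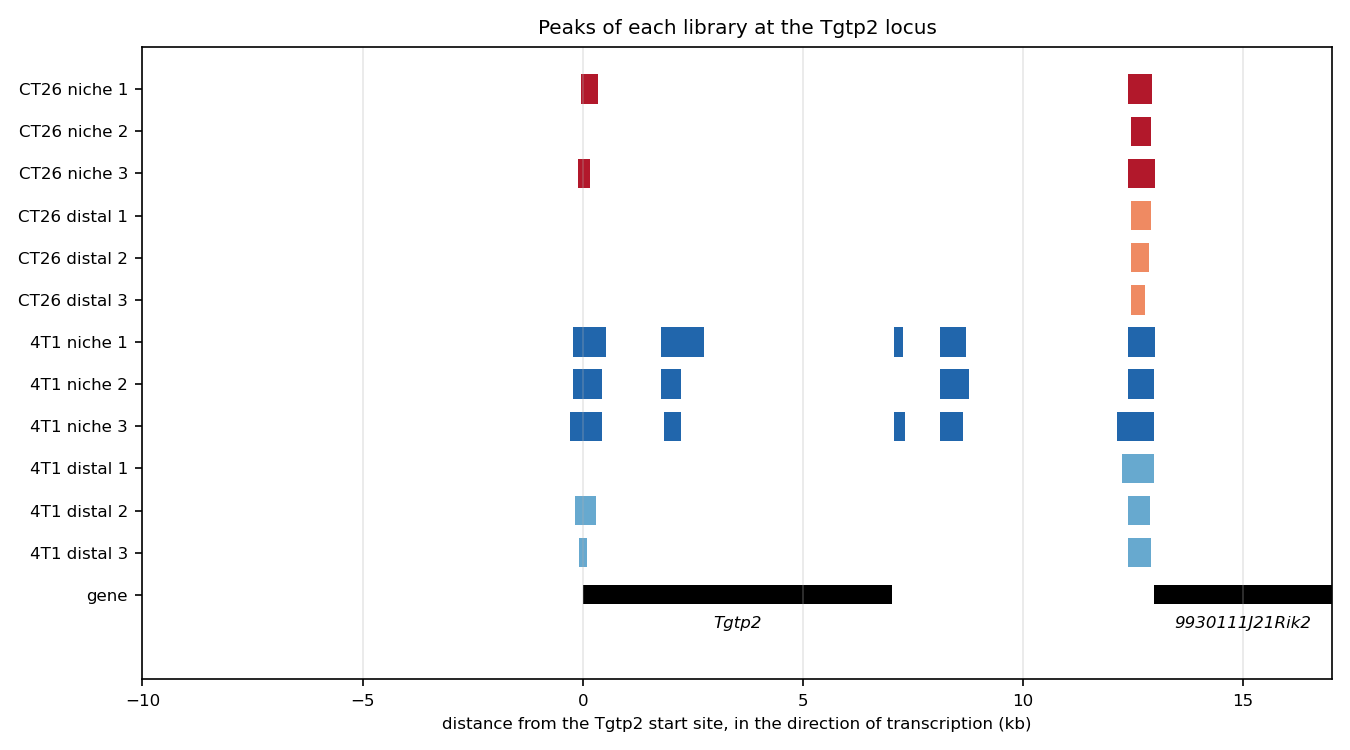
Peaks of each library at the Tgtp2 locus (gene and 10 kb each side), with distance in kb from the start site, in the direction of transcription, on the x axis and 1 library per line. Black bars are genes, of which 9930111J21Rik2 continues past the edge. The start site is under a peak in 2 CT26 niche, 0 CT26 distal, 3 4T1 niche and 2 4T1 distal libraries. The peaks before 9930111J21Rik2 are present in all 12.

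Tgtp1, the close copy of Tgtp2 (48985329 to 48992246), held 1.91, 1.39 and 1.62 kb in CT26 niche libraries, against 0.838, 0.710 and 1.21 kb in CT26 distal libraries. It held 4.34, 3.92 and 3.36 kb in 4T1 niche libraries, against 1.31, 3.22 and 1.72 kb in 4T1 distal libraries. The groups did not overlap in either model, but 4T1 distal replicate 2 came close to the 4T1 niche libraries, and the 4T1 groups overlapped after scaling. The scaled log2 change was 0.42 ± 0.21 in CT26 and 0.64 ± 0.21 in 4T1 (SE). The CT26 change was 0.17 with 2 kb flanks, 0.85 with peaks of −log10 q of at least 5 and 0.80 with lists of equal length. The 4T1 change was 0.11 over the gene body, 0.42 with the stronger peaks and 0.41 without 4T1 distal replicate 1. Replicate 2 of 4T1 distal differed mostly in a region over the 3′ end of the gene, chr11:48983519-48985422. The region held 1.88, 1.75 and 1.70 kb in 4T1 niche libraries, against 0, 1.57 and 0.262 kb in 4T1 distal libraries, and no peak in CT26 libraries. Tgtp1 and Tgtp2 are near-identical copies, and how the authors treated reads that match both is not given in the sources used here, so the split of cover between them is uncertain.

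Irgm2, a regulator (58214977 to 58222783), held 1.02, 0.862 and 0.971 kb in CT26 niche libraries, against 0.457, 0.316 and 0.328 kb in CT26 distal libraries. It held 2.47, 2.91 and 1.64 kb in 4T1 niche libraries, against 1.17, 1.11 and 0.506 kb in 4T1 distal libraries. The groups did not overlap in either model, also after scaling, with scaled log2 changes of 0.63 ± 0.18 in CT26 and 0.83 ± 0.18 in 4T1 (SE). With 2 kb flanks the changes were 0.39 in CT26 and 0.15 in 4T1, and with peaks of −log10 q of at least 5 the 4T1 change was 0.48. Over the gene body alone they were 0.27 in CT26 and −0.13 in 4T1, so the longer cover in 4T1 lay in the flanks, which Irgm2 shares in part with Igtp. Cover of the start region chr11:58214160-58215317 was 0.733 kb in CT26 niche and 0.367 kb in CT26 distal libraries, and 0.999 kb in 4T1 niche and 0.741 kb in 4T1 distal libraries (means, n = 3).

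Igtp, also called Irgm3 and likewise a regulator (58199556 to 58207592), held 2.35, 3.05 and 2.28 kb in CT26 niche libraries, against 1.77, 1.55 and 1.51 kb in CT26 distal libraries. It held 4.10, 4.29 and 2.78 kb in 4T1 niche libraries, against 2.59, 2.61 and 2.10 kb in 4T1 distal libraries. After scaling, the CT26 groups did not overlap and the 4T1 groups did, with changes of 0.32 ± 0.14 and 0.33 ± 0.14 in that order (SE, log2). The CT26 change was 0.02 with 2 kb flanks, 0.04 over the gene body and 0.17 without CT26 niche replicate 2. The 4T1 change was 0.13 over the gene body, 0.14 with lists of equal length and 0.06 with peaks of −log10 q of at least 5. The region over the Igtp start site, chr11:58199222-58200152, was held by all 12 libraries and averaged 0.699 kb in CT26 niche and 0.753 kb in CT26 distal libraries, and 0.861 kb in 4T1 niche and 0.756 kb in 4T1 distal libraries. The niche and distal lengths at the locus thus differed mostly outside the start region. The locus takes in the Irgm2 start region given above, so that cover is counted for both genes. It also takes in chr11:58193419-58194447, whose nearest gene end is that of Gm12250. That region averaged 0.866 kb in CT26 niche and 0.488 kb in CT26 distal libraries, and 1.01 kb in 4T1 niche and 0.936 kb in 4T1 distal libraries. Regions 533 and 2814 bp beyond the upper end of Igtp, in the stretch between Igtp and Irgm2, were held by 2 4T1 niche libraries and no other library.

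Irgm1, the regulator best known for roles in autophagy and in resistance to mycobacteria (48865245 to 48871420), had scaled changes near 0. It held 4.07, 4.25 and 4.48 kb in CT26 niche libraries, against 3.69, 3.79 and 3.19 kb in CT26 distal libraries. It held 4.50, 5.25 and 4.49 kb in 4T1 niche libraries, against 4.37, 4.40 and 3.99 kb in 4T1 distal libraries. The niche libraries were the higher ones in both models, but by no more than the lists as a whole, and after scaling the groups overlapped. The scaled log2 change was −0.02 ± 0.10 in CT26 and −0.04 ± 0.10 in 4T1 (SE), and its sign turned under several of the settings given in the closing section. The region over its start site, chr11:48870954-48873584, held 2.12 kb in CT26 niche and 1.85 kb in CT26 distal libraries, and 2.30 kb in both 4T1 groups (means, n = 3).

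Per length of locus, Irgm1 was the most covered member in all 4 groups. The share of its locus under peaks averaged 16.3% in CT26 niche and 13.6% in CT26 distal, and 18.1% in 4T1 niche and 16.2% in 4T1 distal, and its libraries overlapped with those of no other member in any group. In 4T1 niche the order below it was Iigp1 (15.8%), Tgtp1 (14.4%), Igtp (13.3%), Tgtp2 (10.2%), Irgm2 (8.41%), F830016B08Rik (6.91%) and Gm4951 (3.72%). Each neighbour in that order overlapped with the next, save F830016B08Rik with Gm4951. In CT26 distal the order was Igtp (5.73%), Tgtp1 (3.42%), Tgtp2 (1.46%), Irgm2 (1.32%) and Iigp1 (1.29%), and the last 3 overlapped. There the Tgtp2 share came only from the region over the 9930111J21Rik2 start site. Iigp1 was therefore next after Irgm1 in 4T1 niche, and also in CT26 niche (9.69%) and 4T1 distal (8.88%), where it overlapped with Igtp, but lowest of the members with any peak in CT26 distal.

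The 8 loci fall into 3 clusters, whose cover was summed with each region taken once. The chromosome 18 cluster of Gm4951, F830016B08Rik and Iigp1 (131 kb) held 5.10 ± 0.742 kb in CT26 niche and 0.502 ± 0.234 kb in CT26 distal libraries, a ratio of 10.2. It held 10.7 ± 0.588 kb in 4T1 niche and 4.70 ± 0.490 kb in 4T1 distal libraries, a ratio of 2.28 (SD, n = 3). The Igtp and Irgm2 cluster (43.2 kb) held 2.78 ± 0.252 kb in CT26 niche and 1.61 ± 0.139 kb in CT26 distal libraries (ratio 1.73), and 4.27 ± 0.679 kb in 4T1 niche and 2.62 ± 0.451 kb in 4T1 distal libraries (ratio 1.63). The cluster of Irgm1, Tgtp1 and Tgtp2 (80.1 kb) held 6.67 ± 0.494 kb in CT26 niche and 4.87 ± 0.138 kb in CT26 distal libraries (ratio 1.37), and 11.4 ± 0.713 kb in 4T1 niche and 7.12 ± 1.25 kb in 4T1 distal libraries (ratio 1.60). All ratios exceeded those of the total cover, 1.22 in CT26 and 1.15 in 4T1. No library of a niche group overlapped with its distal group at any cluster. The chromosome 18 difference in CT26, niche minus distal, was 4.60 kb, but 1.23 kb with lists of equal length and 0.264 kb with peaks of −log10 q of at least 5.

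The 3 clusters held 33 merged regions, 14 in that of Irgm1, Tgtp1 and Tgtp2, 7 in that of Igtp and Irgm2, and 12 on chromosome 18. Each CT26 niche library held 20, 17 and 19 of them, against 11, 9 and 9 in CT26 distal libraries. Each 4T1 niche library held 30, 28 and 27, against 16, 20 and 17 in 4T1 distal libraries. Of the 33, 14 (42.4%) were held by more niche than distal libraries in CT26, where 22.8% of all merged regions were, and 18 (54.5%) in 4T1, where 26.9% were. None was held by more distal than niche libraries, against 8.94% of all regions in CT26 and 8.20% in 4T1. Regions held by all 3 niche and no distal libraries numbered 4 (12.1%) in CT26, against 1.56% of all regions, and 4 (12.1%) in 4T1, against 2.59%.

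Those 4 regions of CT26 and those 4 of 4T1 were different regions. In CT26, 3 lay on chromosome 18, at the loci of Gm4951, F830016B08Rik and Iigp1, and 1 at chr11:48979468-48979924 in the Tgtp1 flank, 87 bp from the end of the IRG gene model 9930111J21Rik1. All 4 were also held by 2 or 3 4T1 distal libraries. In 4T1, 3 lay on chromosome 11, 2 of them at the Tgtp2 locus and 1 at chr11:48863331-48864328 beyond the 3′ end of Irgm1, and 1 at the upper end of F830016B08Rik. None of these 4 was held by a CT26 library. By −log10 p their peaks ranked low in their own lists, at the 1.54 to 2.69 percentiles beside Irgm1 and the 5.53 to 14.1 percentiles at F830016B08Rik. At the 2 Tgtp2 regions they ranked at 11.8 to 33.9 and 12.5 to 34.3. The CT26 niche peaks of the 4 CT26 regions ranked low as well. They stood at 8.70 to 23.5 at Gm4951, 5.97 to 24.2 at F830016B08Rik, 4.89 to 12.2 at Iigp1 and 19.4 to 26.6 in the Tgtp1 flank. The niche lists were the longer ones in both models, and their part in these counts was not tested. Regions held by all 12 libraries numbered 8 (24.2%), against 42.1% of all merged regions. They were 5 in the Irgm1, Tgtp1 and Tgtp2 cluster, 3 in the Igtp and Irgm2 cluster and 0 on chromosome 18.

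**Figure D4:**
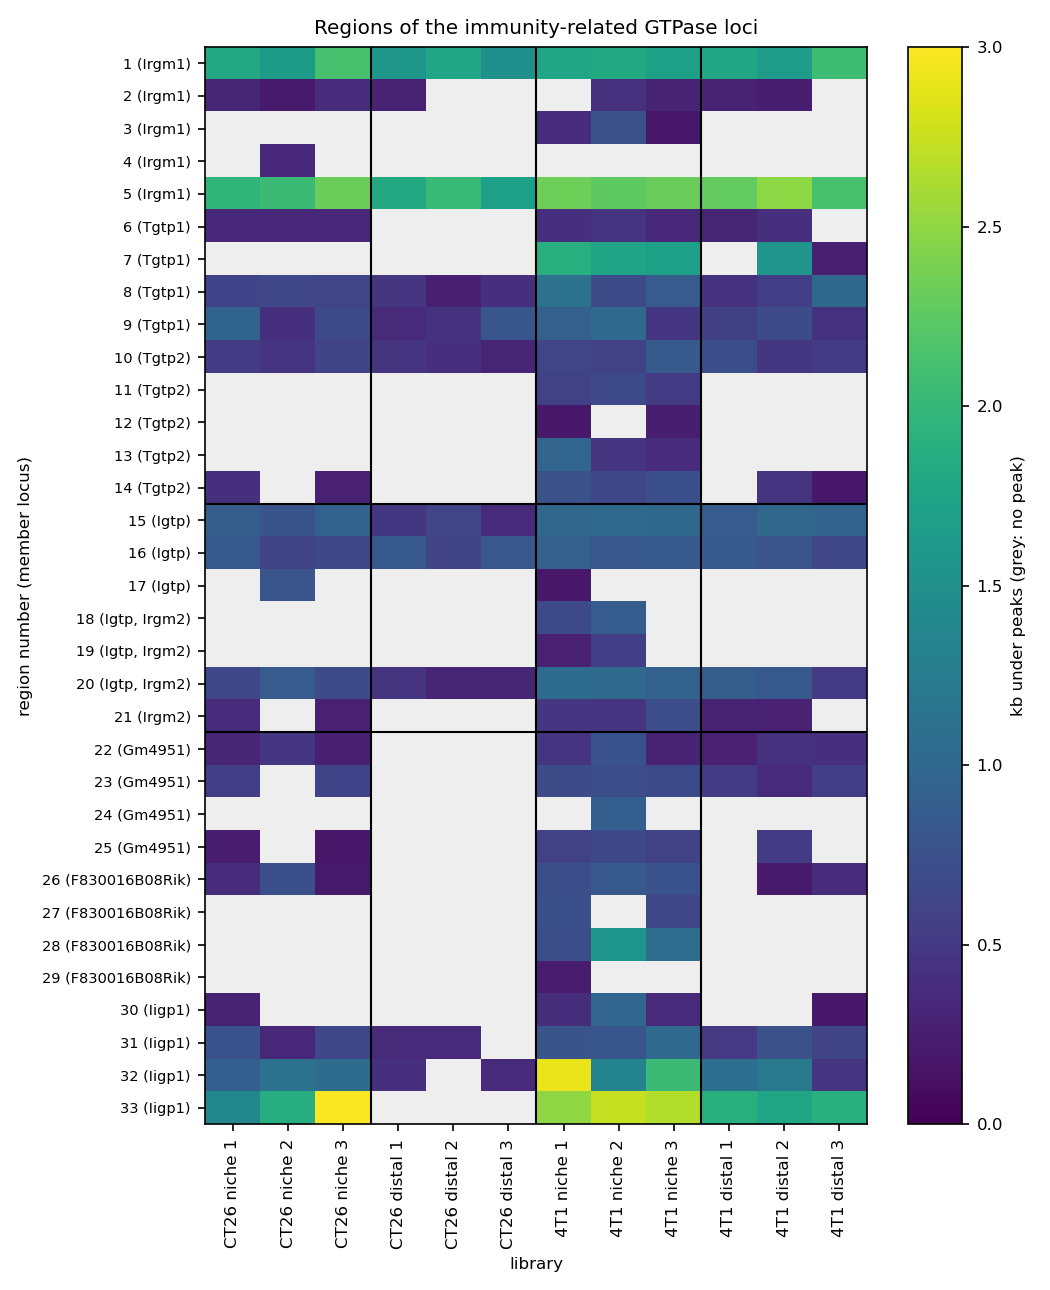
Length under peaks (kb, colour; grey where the library has no peak) in each of the 33 regions of the IRG loci, in order along the chromosomes, with 1 column per library. Vertical lines part the groups and horizontal lines the 3 clusters. The chromosome 18 regions (22 to 33) are almost empty in CT26 distal libraries, which hold 2, 1 and 1 of the 12. The 8 regions filled in all 12 libraries all lie on chromosome 11.

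Set against 4T1, the same tissue site in CT26 had less cover at the IRG loci. In niche cells, CT26 libraries lay below 4T1 libraries without overlap at 7 of 8 loci (all but Igtp; 35.3% of all loci). After scaling they did so at 5 of 8 (Tgtp1, Tgtp2, Irgm2, Gm4951 and F830016B08Rik; 7.64% of all loci). In distal cells, CT26 libraries lay below 4T1 libraries at 7 of 8 loci (all but F830016B08Rik; 49.5% of all loci), and after scaling at 3 of 8 (Tgtp2, Gm4951 and Iigp1; 6.72% of all loci). No member was higher in CT26 without overlap, where 0.559% of all loci were in the niche and 0.279% in distal lung, or 27.0% and 26.0% after scaling. The tumour line and any difference in the handling of the libraries of each model cannot be told apart.

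The genes that make, sense and relay interferon, those that act with IRG proteins, and further IRG gene models were tested as well. Of 59 such genes in 6 lists, 53 had a testable locus. limma with Benjamini-Hochberg adjustment over all 16823 loci called 3 of the 53 higher in the niche of CT26 (0.523% of all loci), 1 in 4T1 (0.594%) and 3 over both models (1.50%). It called none lower, against 0.149%, 0.0297% and 0.886% of all loci in the same order. The 1 call in 4T1, at 9930111J21Rik2, rests on regions that also belong to Tgtp2, so no list gene with cover separate from the members passed in 4T1. At an unadjusted p under 0.05, 9 of the 53 were higher and 7 lower in CT26 (7.73% and 11.3% of all loci), 5 higher and 2 lower in 4T1 (6.16% and 7.23%), and 12 higher and 10 lower over both models (9.05% and 15.7%). These counts include 3 IRG gene models that share a region with a member. The median scaled log2 change of the 53 was 0.02 in CT26 and −0.01 in 4T1, beside −0.04 and −0.05 over all loci.

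Among other IRG genes, Gm12185, which the annotation also names Irgb2b1, rose. Its locus, which takes in its neighbour Gm5431 (Irgb9b8), held 1.84 ± 0.533 kb in CT26 niche and 0.501 ± 0.298 kb in CT26 distal libraries, and 2.47 ± 0.195 kb in 4T1 niche and 1.70 ± 0.280 kb in 4T1 distal libraries (SD, n = 3). The log2 change was 1.12 ± 0.22 in CT26 (limma adjusted p = 0.0455) and 0.69 ± 0.15 over both models (limma adjusted p = 0.0414). Both calls were lost on leaving out any of 10 of the 12 libraries, with adjusted p-values up to 0.121 and 0.0933. 9930111J21Rik2 (Irgb5) held 1.42 ± 0.179 kb in 4T1 niche and 0.572 ± 0.126 kb in 4T1 distal libraries (SD, n = 3). All of that length lay in regions of the Tgtp2 locus, so it repeats values given above and no test is read from it. Gm12250 (Irgb10), next to Igtp, held 2.70 ± 0.329 kb in CT26 niche and 1.34 ± 0.232 kb in CT26 distal libraries and missed the threshold (log2 change 0.60 ± 0.13, limma adjusted p = 0.0641). Its locus likewise shares a region with a member. Of the 3 tested loci in this list that share none, 1 passed in CT26 and 0 in 4T1.

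None of the 11 tested loci for interferon-gamma reception and relay passed in CT26, in 4T1 or over both models. Ifngr1 and Ifngr2, which form the receptor, changed by 0.03 ± 0.12 and −0.30 ± 0.14 in CT26 and by −0.12 ± 0.12 and −0.22 ± 0.14 in 4T1 (log2, SE). The receptor's kinases missed the threshold in CT26, Jak1 at 0.38 ± 0.10 (limma adjusted p = 0.0908) and Jak2 at 0.31 ± 0.07 (limma adjusted p = 0.0739), with 0.13 ± 0.10 and 0.01 ± 0.07 in 4T1. Irf1, a transcription factor that interferon-gamma induces, changed by −0.15 ± 0.09 in CT26 and 0.19 ± 0.09 in 4T1 after scaling. Its unscaled mean was 4.32 kb in CT26 niche and 3.98 kb in CT26 distal libraries. At an unadjusted p under 0.05, limma gave 2 of these loci higher in CT26 (Jak1 and Jak2) and 3 lower, beside 7.73% and 11.3% of all loci. The lower ones after scaling, named after their values were seen, were the inhibitors Ptpn2 (−0.40), Socs1 (−0.19) and Socs3 (−0.20). Unscaled, only Ptpn2 had a shorter mean in the CT26 niche, 1.44 kb against 1.65 kb in CT26 distal libraries. Socs1 held 1.78 and 1.73 kb and Socs3 5.18 and 4.96 kb in the same order. In 4T1 limma gave 1 higher, Ptpn11 (0.63), and 0 lower. Ifng itself had no peak in any library.

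In the list for type I and III interferon, 1 of 10 loci passed. Stat2, a subunit with IRF9 of the factor that binds interferon-stimulated response elements, held 1.74 ± 0.247 kb in CT26 niche and 0.770 ± 0.122 kb in CT26 distal libraries, and 2.09 ± 0.363 kb in 4T1 niche and 1.21 ± 0.0667 kb in 4T1 distal libraries (SD, n = 3). It rose by 0.65 ± 0.11 in CT26 (limma adjusted p = 0.0325) and by 0.54 ± 0.08 over both models (limma adjusted p = 0.00807), and in 4T1 the value was 0.42 ± 0.11 (limma adjusted p = 0.124). The locus also takes in Il23a and Apof, so the cover is not that of Stat2 alone. The CT26 call was lost without any of 4 of the 12 libraries, and the call over both models was kept without each. Irf9 changed by −0.21 ± 0.14 in CT26 and −0.20 ± 0.14 in 4T1 after scaling.

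Among the guanylate-binding proteins, large GTPases that gather on the same vacuoles as IRG proteins, 1 of 10 loci passed. Gbp8 held 0.845 ± 0.0563 kb in CT26 niche and no peak in CT26 distal libraries, and 1.89 ± 0.229 kb in 4T1 niche and 1.11 ± 0.100 kb in 4T1 distal libraries (SD, n = 3). It passed in CT26 (limma adjusted p = 6.22e-05), over both models (limma adjusted p = 1e-04) and for the difference between the niche changes of the models (limma adjusted p = 0.0223), where 0.0178% of all loci were called in that direction and 0.0416% in the other. The last call was lost without any of 8 of the 12 libraries, with adjusted p-values up to 0.105. All these p-values rest in part on the CT26 distal group, which had no peak and hence no spread around the 500 bp added. None of the 14 loci of autophagy proteins and ubiquitin ligases that place IRG proteins on vacuoles passed, with medians of −0.05 in CT26 and −0.11 in 4T1, and neither did Ciita or Nlrc5. At an unadjusted p under 0.05, limma gave 3 of the 14 in CT26, all lower in the niche after scaling (Gabarap at −0.19, Gabarapl2 at −0.21 and Traf6 at −0.19), beside 11.3% of all loci lower. In 4T1 it gave 2, again lower (Gabarapl2 at −0.16 and Traf6 at −0.22), beside 7.23%. Unscaled, the CT26 niche and distal means were 2.54 and 2.44 kb at Gabarap, 3.10 and 3.02 kb at Gabarapl2, and 2.50 and 2.39 kb at Traf6. These CT26 loci were thus lower only relative to the total cover. In 4T1 the niche and distal means were 3.10 and 3.07 kb at Gabarapl2 and 2.85 and 2.98 kb at Traf6. These genes were named after their values were seen. The calls named here for Gm12185, Stat2 and Gbp8 were all lost with lists of equal length (limma adjusted p from 0.0504 to 0.797).

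The tested loci whose profile over the 12 libraries was most like that of Iigp1 were Gbp8, Oas1e, Zfp652, Enox1 and Oas3. The measure was the mean absolute difference of log2 values centred on each locus, which was 0.20, 0.21, 0.22, 0.27 and 0.28 in that order, against a median of 0.79 over all loci. These 5 loci had no peak in CT26 distal libraries, and the loci of Oas1e and Oas3 overlap each other. They were picked by these same values, and Iigp1 had its shortest cover in CT26 distal libraries, so that absence is no separate result. Oas1e, a gene of the 2′-5′ oligoadenylate synthetase family, held 0.786 ± 0.0935 kb in CT26 niche libraries, and 1.61 ± 0.168 kb in 4T1 niche and 0.814 ± 0.177 kb in 4T1 distal libraries (SD, n = 3). Zfp652, a zinc finger gene, held 1.58 ± 0.226 kb in CT26 niche libraries, and 2.19 ± 0.331 kb in 4T1 niche and 1.67 ± 0.379 kb in 4T1 distal libraries. Of the other members, Gm4951 was nearest to Iigp1 at 0.31, ahead of Irgm2 (0.50), Tgtp1 (0.54) and Tgtp2 (0.56), and Irgm1 was farthest at 0.80.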

How the data were processed

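Omni-ATAC-seq of sorted AT2 cells gave 12 libraries in 4 groups of 3, grouped by their labels. The authors deposited 1 list of broad peaks per library in GRCm38 coordinates. MACS2 and bedtools are named in the submitters' processing notes, with no version. For the aligner, the read filters and multi-mapped reads, the answer is not given in the sources used here. Used from the deposited lists were peak starts and ends (bp), the fold enrichment over local background (a ratio within a library), the −log10 p and the −log10 q, all from the authors' peak caller. Those values describe or filter peaks within a list only. Without read counts the depth is unknown, and no counting interval was computed.

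Analysis kept peaks of the 19 autosomes and of X. Lengths under peaks were summed per locus (RefSeq gene of GRCm38.p6 and 10 kb each side). Regions were merged from peaks overlapping by at least 1 bp, and clusters from member loci within 500 kb. For the fit, lengths were scaled to the mean total cover, 500 bp was added, and log2 values were tested by limma 3.58.1 (R 4.3.3) with 4 group means on the 16823 loci where 3 or more libraries had a peak, adjusted by Benjamini-Hochberg, with a threshold of 0.05. The fit was tested on simulated data. Fold changes on this scale understate those of short lengths. Per the labels, each group has 3 biologically independent samples, each pooled from 5 lungs. They do not say whether niche and distal cells came from the same lungs, and p-values measure the spread between these pools. The members, gene lists and alternatives were chosen with earlier results of these data known. Genes named beside the members are list genes that passed in any contrast, Irf1, Ifngr1, Ifngr2, Jak1, Jak2, Stat2 and Irf9, and the 5 loci most like Iigp1. Gm12250 was named after its values were seen. Some list genes that the rule names are not reported here. Alternatives were other flanks, no scaling, −log10 q of at least 5, lists of equal length (42067 peaks a library, the highest by −log10 p), other added lengths, no filter, a replicate block and each library left out. Python 3.11.15 was used for the sums and motif searches.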

Additional observations from a re-analysis of the deposited data

Results flagged for a closer look

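The niche change of the Gbp8 locus differed between the models by a test of the difference itself, with the niche effect in CT26 minus that in 4T1 at 1.07 ± 0.14 on the log2 scale (SE; limma adjusted p = 0.0223). Gbp8 had no peak in CT26 distal libraries, so the value depends on the 500 bp added. Its adjusted p ranged from 0.000188 to 0.921 over 21 alternatives, of which 9 kept the call.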

How the results depend on the processing

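Equal lists are those of equal length, and ranges come from leaving out 1 library in turn. The niche minus distal cluster lengths (kb; 4.24 in 4T1 and 1.79 in CT26 for Irgm1, Tgtp1 and Tgtp2, 1.65 and 1.17 for Igtp and Irgm2, 6.01 and 4.60 on chromosome 18) kept their sign throughout. In the same order of clusters, the values that moved by more than the spread were 0.898 (CT26), 0.943 (4T1) and 0.576 (CT26) with 2 kb flanks. Over gene bodies they were 0.931 (4T1), 0.441 (CT26), 0.131 (4T1), 0.305 (CT26), 4.34 (4T1) and 2.50 (CT26). Scaled to total cover they were 2.62 (4T1), 0.772 (CT26), 1.04 (4T1), 0.871 (CT26) and 4.38 (4T1). With −log10 q of at least 5 they were 1.72 (4T1), 0.823 (4T1), 2.74 (4T1) and 0.264 (CT26). With equal lists they were 2.41 (4T1), 0.823 (4T1), 0.907 (CT26), 2.48 (4T1) and 1.23 (CT26). Leaving out 1 library gave 3.88 to 4.96, 1.39 to 2.04 and 5.71 to 6.30 in 4T1, and 1.63 to 2.08, 1.03 to 1.28 and 4.17 to 4.87 in CT26. Of the IRG regions, those held by more niche libraries numbered 8 in 4T1 and 7 in CT26 with −log10 q of at least 5, and 10 in 4T1 with equal lists. Those held by all niche and no distal libraries numbered 2 in CT26 with 2 kb flanks, 2 in 4T1 and 1 in CT26 with −log10 q of at least 5, and 1 in each with equal lists. The shares of all merged regions under these settings are not given here, so nothing is read from these region counts. The Irgm1 change turned positive in 4T1 with 2 kb flanks (0.02), with no scaling (0.14) and without 4T1 niche replicate 1 (0.00; range over left-out libraries −0.10 to 0.00). It turned positive in CT26 over the gene body (0.01), with no scaling (0.23), with equal lists (0.02) and without CT26 niche replicate 1 (0.08) or CT26 distal replicate 2 (0.06; range −0.11 to 0.08). Irgm2 in 4T1 was −0.13 over the gene body, and the Gbp8 difference between models was −0.21 with −log10 q of at least 5. The cause of these turns was not tested.

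List genes called in 4T1 (1) numbered 0 with 2 kb flanks, over gene bodies, with −log10 q of at least 5, with equal lists and with 100 bp added, and 4 with no scaling. In CT26 (3) they numbered 12 with no scaling, 5 with −log10 q of at least 5 and 0 with equal lists, and over both models (3) they numbered 20, 6 and 1. For the difference between models (1) they numbered 3 with −log10 q of at least 5, 0 with equal lists and 0 with 1000 bp added. Leaving out 1 library gave 0 to 1 in 4T1, 1 to 4 in CT26, 2 to 3 over both and 0 to 1 for the difference. The share of all loci called under each alternative is not given here, so nothing is read from these counts. Unscaled, 33.5% of all loci were higher in the CT26 niche without overlap and 27.5% in the 4T1 niche. After scaling these shares were 6.76% and 8.08%. Whether replicate numbers pair the samples is not settled. Deviations of libraries with the same number correlated between −0.0903 and 0.0892 over 18 pairs, which include pairs across the models. Within 4T1, niche and distal libraries of the same number gave 0.0892, 0.0374 and 0.0285, against at most 0.0246 for different numbers. Within CT26 they gave 0.0113, 0.0175 and −0.0441, against up to 0.0921. With the replicate number as a block, 0 list genes were called in 4T1, 1 in CT26, 2 over both and 0 for the difference. Depth is unknown, so an absent peak at a weak region is no sign of closed chromatin.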
